A study of Mus musculus with 24 samples.

Results

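The genes described here had higher RNA after 6 days without leukemia inhibitory factor (LIF) than before in mouse embryonic stem cells (ESCs) with Tet2 alone knocked out, but not in WT ESCs. For each gene symbol, counts were scaled to CPM (counts divided by the library total, in units of 1e6 counts), turned into log2(CPM + 1) and averaged over the clones of a genotype at each day. A gene belonged to the set when its mean at D6 exceeded that at D0 by at least 1 in Tet2-/- and by at most 0.3 in WT, with symbols starting Hox or Col left out. The 81 genes, of 22926 gene symbols, were thus chosen by their WT and Tet2-/- values at both days, and 0 Hox or Col symbols met the thresholds. Since the WT and Tet2-/- libraries chose the genes, their values are given below as a description, and tests are limited to the other knockouts.

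RNA was sequenced from 24 libraries, 12 of undifferentiated cells (D0) and 12 of cells cultured for 6 days without LIF (D6). Every clone derives from 1 parental 129/SVj ESC clone with an eGFP reporter at the Oct4 locus, grown on gelatin without feeder cells, and the unedited clones of that line are called WT. At each day there were 3 WT clones, 3 Tet1-/- clones, 2 Tet2-/- clones, 2 clones with Tet1 and Tet2 edited (DKO) and 2 with Tet1, Tet2 and Tet3 edited (TKO). The knockout clones were edited with CRISPR/Cas9. All clones were sequenced at both days except in Tet1-/-, where clone 2.3 stands for D0 alone and clone 2.2 for D6 alone. The Tet2-/- and TKO clones are named below by replicate number, the same on both days, and the others by the names in the labels. A library is 1 clone, so p-values measure the spread between clones of 1 parental line.

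Tet proteins oxidize methylated cytosine, the step that starts DNA demethylation, and ESCs express Tet1 and Tet2 while the pluripotent state lasts. LIF holds mouse ESCs in that state through STAT3 signalling. After its removal the pluripotency factors are turned down, and genes of the primed epiblast and then of the germ layers are turned on.

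The site of the Tet2 edit is shown first, since it defines the Tet2-/- clones, with the upstream sequences of 3 genes of the set. The guide matched 1 site on chromosome 3 of mm9, chr3:133148620-133148639 on the minus strand, within coding sequence (exon 1 and exon 3 of the annotated GENCODE vM1 transcripts that contain it), and capitals mark the PAM. The other sequences are the 250 bases before the annotated gene start in GENCODE vM1, read 5′ to 3′ on the strand of the gene, with every CpG in capitals, the dinucleotide that Tet proteins act on. Cdk5r2 (chr1:74901258-74901507, plus strand) and Tnfsf11 (chr14:78707851-78708100, minus strand) met the thresholds in every clone, and Astn1 (chr1:160292221-160292470, plus strand) also rose in the other knockouts.
Tet2 guide site: gaaagtgccaacagatatccAGG
Cdk5r2 upstream: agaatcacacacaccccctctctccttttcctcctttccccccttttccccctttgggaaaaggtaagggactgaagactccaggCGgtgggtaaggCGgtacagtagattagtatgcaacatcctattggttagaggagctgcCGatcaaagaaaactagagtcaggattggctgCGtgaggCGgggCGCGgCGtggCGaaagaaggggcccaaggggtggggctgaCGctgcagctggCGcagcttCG
Tnfsf11 upstream: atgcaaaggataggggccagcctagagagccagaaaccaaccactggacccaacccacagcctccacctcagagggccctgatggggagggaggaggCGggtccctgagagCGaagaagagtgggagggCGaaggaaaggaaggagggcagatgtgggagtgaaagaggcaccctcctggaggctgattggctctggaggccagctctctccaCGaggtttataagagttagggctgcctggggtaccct
Astn1 upstream: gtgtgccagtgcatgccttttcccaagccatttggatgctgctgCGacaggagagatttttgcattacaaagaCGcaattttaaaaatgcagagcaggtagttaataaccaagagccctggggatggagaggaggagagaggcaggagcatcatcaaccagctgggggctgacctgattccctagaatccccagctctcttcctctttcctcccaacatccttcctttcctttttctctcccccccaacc
The stretches hold 12 CpG in Cdk5r2, 4 in Tnfsf11 and 2 in Astn1, so the 3 genes differ widely in how many sites of methylation lie before their starts. The bisulfite sequencing that the study made of D0 cells was not analysed here, and the sequences are a description.

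The Tet genes themselves were counted in every library, in CPM. Tet2 stood at 84.6 to 91.0 in the WT clones at D0 and at 19.5 and 21.3 in the Tet2-/- clones, so the groups did not overlap. It was 51.8 and 20.8 in the DKO clones, 40.1 and 7.51 in TKO replicates 1 and 2, and 80.2 to 105 in Tet1-/- at D0. At D6 it was 13.2 to 16.9 in WT and 16.2 and 17.0 in Tet2-/-, and 6.17 to 17.6 in the other knockouts. Tet1 was 214 to 416 in WT at D0, and within or above that range in Tet1-/- clone 2.4 (332), both DKO clones (346 and 216) and TKO replicate 1 (536). It was lower in Tet1-/- clones 2.1 and 2.3 (89.2 and 116) and TKO replicate 2 (38.4). At D6 Tet1 was 116 to 133 in WT, 326 and 292 in Tet2-/-, and 270 and 58.9 in TKO replicates 1 and 2. The Tet1-/- clones ran from 90.3 to 203, and the DKO clones had 87.1 and 169. Tet3 at D6 was 14.1 to 22.6 in WT, 15.7 and 16.3 in Tet2-/-, and 8.39 and 8.93 in TKO. The edits are insertions or deletions at the guide sites and reads were counted over whole genes, so a level within the WT range does not check a label, and the TKO and Tet1-/- tests are given below also without the libraries of TKO replicate 1 and of Tet1-/- clone 2.4. Libraries held 18400463 to 37290208 counts, and the 7 ESC markers (Pou5f1, Sox2, Nanog, Zfp42, Esrrb, Tfcp2l1, Klf4) summed to 4260 to 4909 CPM in the D0 libraries, with none at 0.

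The 81 genes had a median day change (D6 minus D0) of 1.20 in Tet2-/- (range 1.00 to 2.34) and of 0.0175 in WT (range -1.32 to 0.30), on the log2(CPM + 1) scale. The median over the 15639 genes tested was 0.0903 in Tet2-/- and 0.113 in WT on that scale. By clone, the median of the set was 1.22 in Tet2-/- replicate 1 and 1.24 in replicate 2. All 81 genes had a positive change in both clones, and 51 reached 1 in both. In WT it was -0.250 in clone O4.1, -0.184 in clone O4.13 and 0.253 in clone O4.2. WT clone O4.2 thus stood apart, with 8 of the 81 genes at a change of at least 1, against 0 in the other WT clones. In 33 genes all WT clones stayed at or under 0.3, and 17 genes met both thresholds in every clone.

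**Figure D1:**
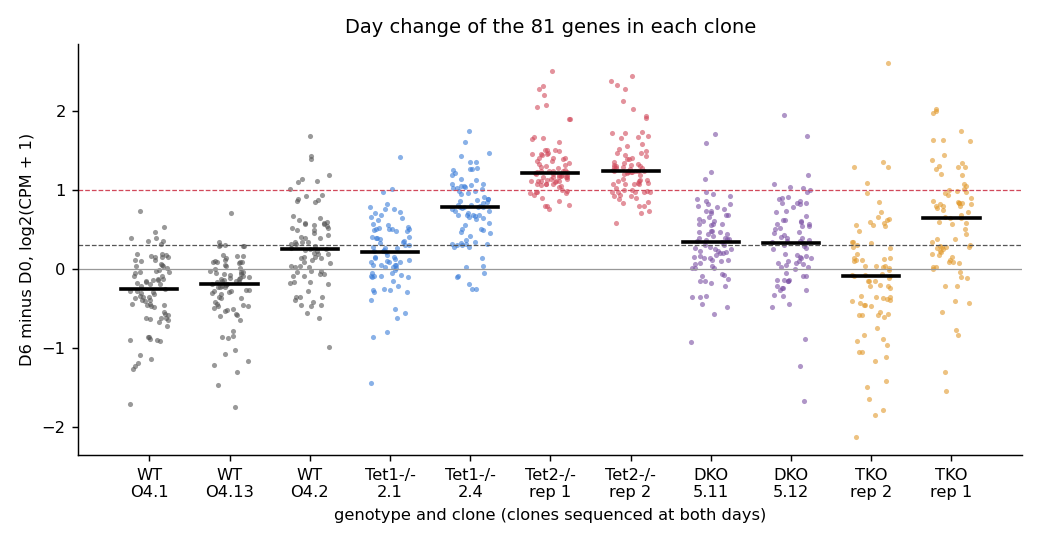
Day change (D6 minus D0, log2(CPM + 1)) of the 81 genes in each clone sequenced at both days; each point is a gene, black bars are medians, and dashed lines mark the thresholds of 0.3 (WT) and 1 (Tet2-/-) used on genotype means. The Tet2-/- medians are 1.22 and 1.24, WT clone O4.2 lies above the other WT clones, and TKO replicates 1 and 2 are split at 0.653 and -0.0905.

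The thresholds cut through a continuum. Just inside the Tet2-/- threshold were Zfp738 (1.004), Gm10416 (1.015) and Rasgrf2 (1.021), and just outside it Nova1 (0.9998), Zfp62 (0.9994) and Cyp2b23 (0.9993). Just inside the WT threshold were Npy1r (0.2999), Astn1 (0.2989) and C330021F23Rik (0.294), and just outside it Slitrk5 (0.302), Mtap7d3 (0.304) and Pml (0.309). With CPM scaled by TMM factors the same rule gave 68 genes, of which 51 were among the 81.

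The largest changes in Tet2-/- were in Cdh9, Jakmip2, Ugt8a, Enpp3, Ntrk2 and Pax6, genes best known from the nervous system except Enpp3. By role, 26 of the 81 genes are known from neurons or neural tissue as receptors and channels, synaptic proteins, adhesion and matrix proteins, or kinases and cytoskeletal proteins. The other roles held 10 transcription and chromatin factors, 4 lipid enzymes and transporters, 6 other enzymes and 2 secreted ligands, and 33 genes were left ungrouped. This grouping was made with the values known and was not tested.

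Among adhesion and matrix proteins, Cdh9 (chromosome 15, 16707856 to 16786522), a cadherin of neurons, had 9.50 and 9.56 CPM in the Tet2-/- clones at D6 and 1.15 and 1.02 at D0. WT clones had 0.598, 1.37 and 1.16 CPM at D6 and 1.48, 0.873 and 0.761 at D0. Both Tet2-/- values at D6 lay above every other library of the series, the next being 5.05 CPM in Tet1-/- clone 2.4. Ncan, a proteoglycan of the brain matrix, had 16.8 and 18.1 CPM in Tet2-/- at D6, 5.26 and 3.67 at D0, and 5.65, 5.95 and 11.1 in WT at D6. Serpini1, the protease inhibitor neuroserpin, had 11.5 and 9.45 CPM in Tet2-/- at D6 against 4.06 and 2.82 at D0. Its WT clones had 3.08, 5.36 and 3.76 CPM at D0 and 1.25, 2.12 and 3.23 at D6, so the WT values lay lower at D6 in each clone. Nell2, a secreted neural protein, had 4.06 and 3.73 CPM in Tet2-/- at D6 and 0.836 and 0.697 at D0, and 0.707 to 2.62 in WT at D6.

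Among receptors and channels, Ntrk2 (chromosome 13, 58907957 to 59235331), the receptor of brain-derived neurotrophic factor, had 9.56 and 10.2 CPM in Tet2-/- at D6 and 1.27 and 1.29 at D0. WT clones had 0.870, 0.890 and 4.31 CPM at D6, the highest in clone O4.2, and 1.33 to 1.80 at D0. The Tet2-/- mean at D6 was 4.87 times the WT mean. Nalcn, the sodium leak channel, had 2.74 and 2.24 CPM in Tet2-/- at D6, 0.478 and 0.617 at D0, and at most 0.655 in WT at either day. Galr2, a galanin receptor, had 4.0 and 4.37 CPM against 1.27 and 1.29 at D0, and 0.707 to 1.77 in WT at D6. Neto2, an auxiliary subunit of kainate receptors, had 12.2 and 11.2 CPM against 4.78 and 3.83 at D0, and 4.52 to 4.93 in WT at D6, where no WT clone overlapped it. Scn9a, a sodium channel of sensory neurons, did overlap, with 2.53 and 1.81 CPM in Tet2-/- and 0.815, 2.46 and 0.847 in WT at D6. TKO replicate 2 had 5.61 CPM of Scn9a at D6.

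Among kinases and cytoskeletal proteins, Cdk5r2 (chromosome 1, 74901508 to 74904005), an activator of the neuronal kinase Cdk5, had 16.1 and 20.5 CPM in Tet2-/- at D6 and 4.46 and 5.44 at D0. WT clones had 1.90, 2.74 and 4.78 CPM at D6 and 5.04 to 5.78 at D0, and the mean in Tet2-/- at D6 was 5.84 times that in WT. Jakmip2, which binds microtubules, had 8.0 and 8.35 CPM in Tet2-/- at D6 and 0.796 and 0.858 at D0, with 0.761, 1.54 and 3.47 in WT at D6. Crmp1, a mediator of semaphorin signals in growth cones, had 80.4 and 77.8 CPM in Tet2-/- at D6 and 38.5 and 34.9 at D0. In WT it had 17.6, 23.9 and 42.5 CPM at D6 and 29.9 to 43.6 at D0. Enc1, an actin-binding protein, had 260 and 247 CPM in Tet2-/- at D6, 114 and 128 at D0, and 135 to 176 in WT at D6.

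Synaptic vesicle and release proteins were Rims4, Sncb, Sv2c and Syt4, with a median day change of 1.14 in Tet2-/- and -0.111 in WT. Syt4, a synaptotagmin, had 7.03 and 6.22 CPM in Tet2-/- at D6 and 2.71 and 2.65 at D0, and 0.380, 0.924 and 2.62 in WT at D6. Sncb, beta-synuclein, was the member farthest above WT already at D0, with 3.19 and 1.88 CPM in Tet2-/- and 0.749 to 1.37 in WT. At D6 it had 6.27 and 5.86 CPM in Tet2-/- and 0.445 to 2.54 in WT. All 4 genes lay higher in both Tet2-/- clones at D6 than in every WT clone.

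**Figure D2:**
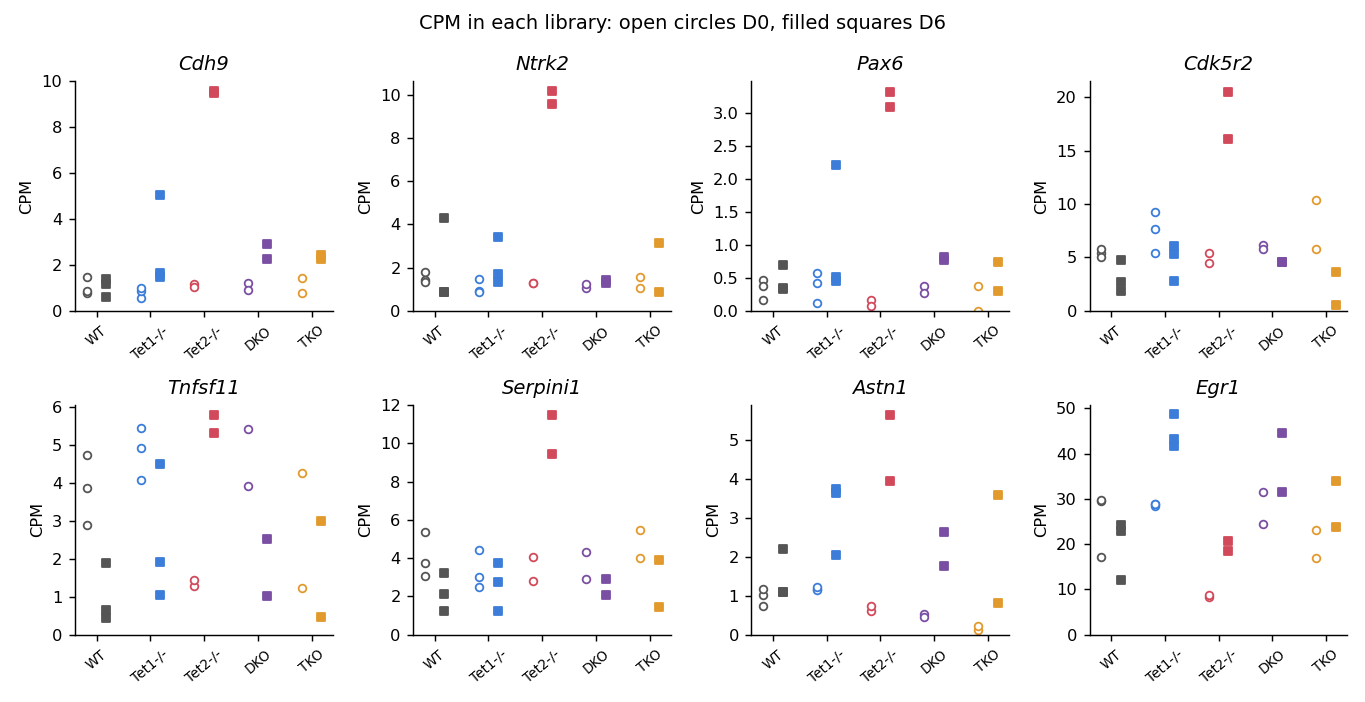
CPM of 8 genes in each library; the x axis gives the genotype, open circles are D0 and filled squares D6, and each point is 1 clone. In Cdh9, Ntrk2, Pax6, Cdk5r2 and Serpini1 the Tet2-/- squares lie above all other points of the panel, whereas in Egr1 they lie at the WT level.

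Of the transcription and chromatin factors, Pax6 (chromosome 2), a master regulator of eye and neural development, had 3.32 and 3.09 CPM in Tet2-/- at D6 and 0.159 and 0.0805 at D0, where it was at or near the limit that a count of 0 allows (3 counts, 0.0805 to 0.163 CPM over libraries). WT clones had 0.326, 0.342 and 0.693 CPM at D6. Pou2f2, the POU factor Oct-2 of B cells and neurons, had 3.65 and 5.30 CPM in Tet2-/- at D6, 0.757 and 0.644 at D0, and 0.761 to 1.81 in WT at D6. The chromatin remodeller Chd9 had 249 and 243 CPM in Tet2-/- at D6 and 118 and 115 at D0, with 72.8 to 108 in WT at D6. Ell2, a subunit of the super elongation complex, had 166 and 147 CPM against 70.2 and 71.2 at D0, and 63.9 to 82.9 in WT at D6. Bend3, a repressor that binds heterochromatin, had 135 and 138 CPM against 59.4 and 56.0 at D0, and 50.7 to 64.7 in WT at D6. In these 3 widely expressed genes neither day of WT reached the Tet2-/- level of D6.

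Of the secreted ligands, Lefty1, a Nodal antagonist, had 99.1 and 131 CPM in Tet2-/- at D6 and 55.9 and 52.0 at D0. WT clones were uneven, with 61.3, 56.1 and 12.8 CPM at D0 and 32.4, 19.6 and 43.4 at D6 in clones O4.1, O4.13 and O4.2. Tnfsf11 (chromosome 14, 78677252 to 78707850), which encodes the cytokine RANKL, had 5.32 and 5.79 CPM in Tet2-/- at D6 and 1.27 and 1.45 at D0. Its WT values ran the other way, 2.89, 3.87 and 4.72 CPM at D0 and 0.652, 0.445 and 1.89 at D6, the lowest WT change of the set (-1.32). Tnfsf11 therefore lay below WT at D0 and above WT at D6.

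Lipid enzymes and transporters were Ugt8a, Abcg1, Mfsd2a and Atp8a2, with a median day change of 1.39 in Tet2-/- and 0.147 in WT. Ugt8a, which makes the galactolipid of myelin, had 20.4 and 16.7 CPM in Tet2-/- at D6 and 2.75 and 3.03 at D0, and 3.15, 3.49 and 14.4 in WT at D6. Abcg1, a cholesterol exporter, had 34.7 and 34.2 CPM against 15.2 and 10.2 at D0, and 8.64, 9.10 and 26.1 in WT at D6. In both genes the highest WT value was that of clone O4.2. Enpp3, an ectonucleotide phosphatase, showed the same, with 101 and 86.7 CPM in Tet2-/- and 21.1, 16.9 and 63.5 in WT at D6.

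Ungrouped members with large changes included Gm1564 (1.68) and Vat1l (1.61). Gm1564 had 8.64 and 7.75 CPM in Tet2-/- at D0, far under the 29.2 to 36.1 of WT, and 29.8 and 27.3 at D6, within the WT values of 8.21, 14.0 and 37.9. The DKO and TKO clones lay above Tet2-/- for Gm1564 at D6, with 37.0 to 81.6 CPM. Fam19a4, a secreted chemokine-like protein, had 4.27 and 3.13 CPM in Tet2-/- at D6, 1.19 and 0.939 at D0, and 0.163, 0.650 and 0.616 in WT at D6. Hook1, a cargo adaptor of dynein, had 157 and 154 CPM in Tet2-/- at D6 and 80.2 and 72.3 at D0, and 92.0, 102 and 140 in WT at D6. Members of multigene families (Mup6, Gm5141, Gm10416, 2610044O15Rik8, AA388235 and the 4 Zfp genes Zfp40, Zfp738, Zfp930 and Zfp944) can share reads with near-identical copies, and their counts are uncertain.

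A day change can rest on the level at D0 as well as on that at D6, and the set held both kinds. At D6, both Tet2-/- clones lay above all WT clones in 70 of the 81 genes and above all 10 other D6 libraries in 51 (26.7% and 11.1% of all genes tested, and the rule used the WT and Tet2-/- values). The mean in Tet2-/- exceeded that in WT by at least 1 in 48 genes and by at least 0.5 in 70. In the other 11 genes (Aass, Cbr3, D10Bwg1379e, Efhd1, Egr1, Lhpp, Mfsd2a, Rev1, Scn9a, Svip and Zfp40) Tet2-/- was less than 0.5 above WT at D6, and all 11 lay at least 0.5 below WT at D0. Egr1, an immediate early gene of growth factor signalling, had 8.24 and 8.85 CPM in Tet2-/- and 17.2 to 29.9 in WT at D0, but 20.8 and 18.5 against 12.1 to 24.1 at D6. Lhpp, a phosphatase, had 8.36 and 6.78 CPM against 16.3 to 19.5 at D0, and 18.6 and 15.4 against 18.8 to 23.3 at D6. Over all 81 genes, 23 were at least 0.5 below WT at D0 (12 of them also at least 0.5 above it at D6), and 3 were at least 0.5 above it. In 37 genes both Tet2-/- clones lay below all WT clones at D0, as did 32.1% of all genes tested.

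**Figure D3:**
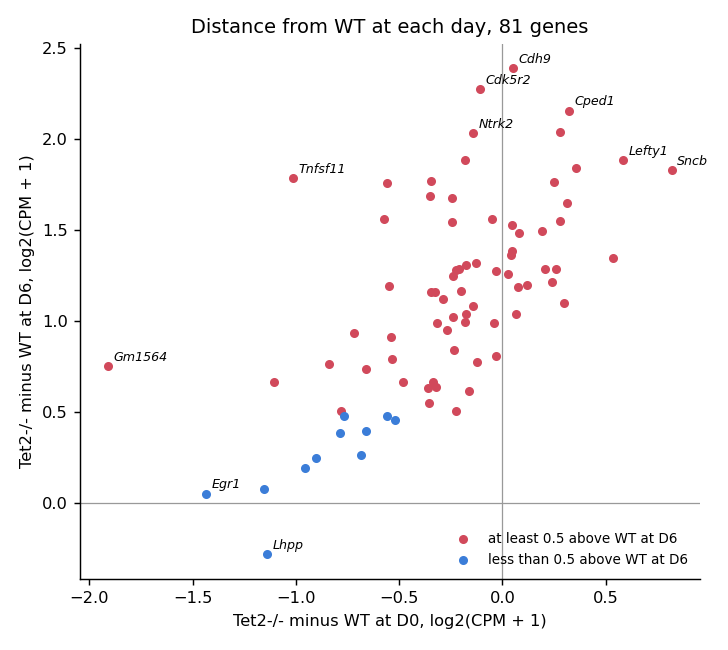
Tet2-/- minus WT (log2(CPM + 1), means over clones) at D0 on the x axis and at D6 on the y axis for the 81 genes. The 11 genes in blue, among them Egr1 and Lhpp, are less than 0.5 above WT at D6 and all lie at least 0.5 below WT at D0, while Cdh9, Cdk5r2 and Ntrk2 start near WT and lie over 2 above it at D6.

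The other knockouts, whose libraries did not choose the genes, show whether the change is shared. In log2(CPM + 1), the median day change of the 81 genes was 0.418 in Tet1-/-, 0.358 in DKO and 0.275 in TKO. It was 0.147, 0.143 and 0.140 over all genes tested in the same order, and the median log2 fold change of all genes in the edgeR fit, with TMM scaling, was 0.00287, -0.0124 and 0.0110. A change of at least 1 was reached by 1 gene in Tet1-/-, 5 in DKO and 8 in TKO, 12 genes in any of these, so for these genes the change is not particular to Tet2-/-. Over all genes tested the shares were 15.4%, 16.3% and 13.6%, and 20.1% in any, but these shares include the genes that rose in WT, which the rule left out of the set. In 20 of the 81 genes the change was at most 0.3 in all of these genotypes. This was a smaller share than the 48.6% of all genes tested, and the comparison was not tested. All 81 genes passed the filter on low counts, also when the Tet2-/- D6 libraries were left out of it.

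In Tet1-/-, 10 of the 81 genes rose from D0 to D6 and 0 fell (edgeR, adjusted p under 0.05 and an absolute log2 fold change above 1). Among all genes tested 19.9% rose and 11.2% fell, so the share that rose in the set (12.3%) was below that of all genes. Since the rule left out genes that rose in WT, the share was also taken over the 9337 tested genes with a WT day change of at most 0.3, of which 2.11% rose in Tet1-/-, 1.90% in DKO and 2.92% in TKO. The set thus lay under the one background and over the other, and neither comparison was tested. With library totals in place of TMM, the scaling used to choose the genes, 17 of the 81 rose in Tet1-/-, 12 in DKO and 12 in TKO. The shares on that scaling were 23.6%, 22.6% and 20% of all genes tested, and 2.93%, 2.62% and 3.84% of those with a WT change of at most 0.3. In Tet1-/- the 3 genes with the smallest p were Sorbs2 (log2 fold change 1.54 ± 0.280 standard error, adjusted p = 0.000104), Nalcn (2.23 ± 0.472, adjusted p = 0.000460) and Galr2 (1.39 ± 0.323, adjusted p = 0.00103), from the quasi-likelihood test of edgeR. Nalcn had 0.304, 0.0760 and 0.0818 CPM in the D0 clones and 0.827, 0.615 and 1.11 at D6, so the days did not overlap, but the values of 0.0760 and 0.0818 lie under the floor of 3 counts (0.114 and 0.123 CPM in those libraries) and the size of its fold change is uncertain. The others were Cdh9, Atp8a2, Astn1, Pou2f2, Rasgrf2, Rgs7bp and Scn9a, of which Astn1, Pou2f2 and Scn9a lost their calls with the clone as a block. Scn9a lost its call under 13 alternatives in all, 11 of them single left-out libraries, some of other genotypes. Cdh9 had 1.65, 1.46 and 5.05 CPM in clones 2.1, 2.2 and 2.4 at D6, and its call was lost without clone 2.4, as were those of Atp8a2, Pou2f2, Rasgrf2 and Rgs7bp. The last 3 were also lost without other Tet1-/- libraries. Without clone 2.4 at D6, 5 genes rose and 4 fell, and without it at D0, 7 rose and 0 fell.

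In DKO, 7 genes rose and 1 fell, while 18.6% of all genes tested rose and 10.6% fell. Aass, the first enzyme of lysine breakdown, rose from 3.84 and 3.54 CPM to 9.73 and 13.7 (1.46 ± 0.366 on the log2 scale, the error being the standard error, adjusted p = 0.00252, edgeR). Rasgrf2, an exchange factor of Ras, rose from 0.495 and 0.552 CPM to 3.54 and 2.28 (2.25 ± 0.632, adjusted p = 0.00552, edgeR), above its level in Tet2-/- at D6 in 1 DKO clone and between the Tet2-/- values of 2.29 and 1.81 in the other. Astn1, an adhesion protein of migrating neurons, rose from 0.537 and 0.460 CPM to 2.62 and 1.75 (1.91 ± 0.550, adjusted p = 0.00669, edgeR). Galr2, Cacna1s, Lefty1 and Nalcn also rose. Lefty1 went from 13.8 and 8.84 CPM to 47.7 and 37.2, and its call and that of Nalcn were lost when any 1 of the 4 DKO libraries was left out. The Nalcn call was also lost with the clone as a block, with DESeq2 and without the filter on low counts. The calls of Galr2 and Cacna1s were each lost without any 1 of 3 DKO libraries. Crmp1 fell from 32.7 and 42.2 CPM to 16.7 and 17.4 (-1.34 ± 0.377, adjusted p = 0.00570, edgeR), against the direction of Tet2-/-, a call that was lost without the D0 library of the second of these clones. Without a DKO library, 3 to 5 of the genes rose.

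In TKO, 9 genes rose and 2 fell, while 16.8% of all genes tested rose and 8.63% fell. Lhpp rose from 8.32 and 10.1 CPM to 24.4 and 22.7 (1.18 ± 0.197 on the log2 scale, adjusted p = 9.18e-05, edgeR). Astn1 rose from 0.118 and 0.228 CPM in replicates 1 and 2 to 3.57 and 0.816 (3.46 ± 0.632, adjusted p = 0.000202, edgeR), where 0.118 CPM is the floor of 3 counts, and Aass from 1.62 and 2.58 to 9.52 and 8.21 (1.89 ± 0.379, adjusted p = 0.000461, edgeR). Scn9a, D10Bwg1379e, Cacna1s, C330021F23Rik, Rasgrf2 and Nell2 also rose. Scn9a went from 0.355 and 0.0759 CPM in replicates 1 and 2 to 1.24 and 5.61. The value of 0.0759 lies under the floor of 3 counts (0.114 CPM in that library), so the size of its fold change is uncertain. Cacna1s and D10Bwg1379e lost their calls without replicate 1 at D6, and C330021F23Rik without replicate 2 at D6. The calls of Rasgrf2 and Nell2 were each lost without any 1 of 3 TKO libraries, that of Nell2 also with the clone as a block, and Rasgrf2 had a log2 fold change of -0.32 without replicate 1 at D6. Cdk5r2 fell from 10.4 and 5.81 CPM to 3.61 and 0.561 (-2.09 ± 0.526, adjusted p = 0.00298, edgeR), and Crmp1 from 21.6 and 36.1 to 22.9 and 9.69 (-1.01 ± 0.377, adjusted p = 0.0329, edgeR), a call that was lost under 14 of the alternatives. In replicate 1 Crmp1 lay higher at D6 than at D0. The 2 clones differed widely, with a median change of the set of 0.653 in replicate 1 and -0.0905 in replicate 2. Without replicate 1 at D6, 5 genes rose and 11 fell, and without it at D0, 11 rose and 2 fell. Without replicate 2 at D6, 14 rose and 1 fell.

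**Figure D4:**
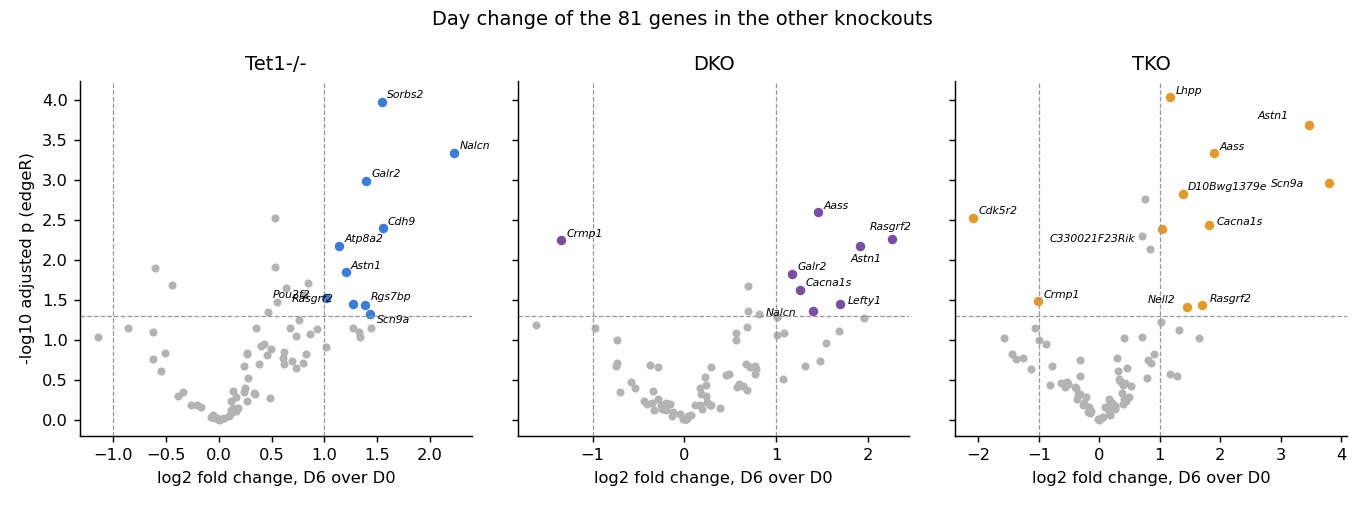
Log2 fold change of D6 over D0 (x axis) and -log10 of the adjusted p (y axis, edgeR) for the 81 genes in Tet1-/-, DKO and TKO; coloured and named points passed both thresholds (dashed lines), grey points did not. The genes that rose number 10, 7 and 9, and those that fell 0, 1 and 2.

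Over these tests, 17 of the 81 genes rose in at least 1 genotype, 7 in at least 2, and Astn1 and Rasgrf2 in all 3, although the Rasgrf2 calls in Tet1-/- and TKO were lost without single libraries and that of Astn1 in Tet1-/- with the clone block. Among all genes tested 24.8% rose in at least 1, 18.1% in at least 2 and 12.3% in all 3, and among those with a WT change of at most 0.3 the shares were 4.55%, 1.69% and 0.685%. In 62 of the 81 genes no test was passed in either direction, against 59.7% of all genes. Of the 29 calls, 11 held under every alternative scaling, tool, filter and left-out library: Sorbs2, Nalcn and Galr2 in Tet1-/-, Aass, Rasgrf2 and Astn1 in DKO, and Lhpp, Astn1, Aass, Scn9a and Cdk5r2 in TKO. Cdk5r2, Serpini1 and Tnfsf11 had negative log2 fold changes in all of these genotypes: Serpini1 had -0.55, -0.75 and -0.997 in Tet1-/-, DKO and TKO (adjusted p = 0.242, 0.210 and 0.0990, edgeR), and Tnfsf11 had -1.14, -1.62 and -0.81 (adjusted p = 0.0909, 0.0652 and 0.369, edgeR), none past the thresholds. Ntrk2, one of the largest changes in Tet2-/-, had 0.80, 0.01 and 0.45 (adjusted p = 0.193, 0.988 and 0.579, edgeR).

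DKO clones carry the Tet2 edit on top of the Tet1 edit, so they were set against Tet1-/- to ask whether adding it moved the set. At D6, 0 of the 81 genes were higher and 0 lower in DKO than in Tet1-/- by edgeR and by DESeq2, with 1 gene in each direction at an unadjusted p under 0.05. Among all genes tested 0.0% were higher and 0.00639% lower. The median log2 fold change of the set was -0.15 (DKO over Tet1-/-), and the smallest adjusted p was 0.489 (edgeR). The day change of DKO minus that of Tet1-/- gave 0 genes in either direction by edgeR and by DESeq2, 0 at an unadjusted p under 0.05, and 0.0% of all genes tested. No difference between DKO and Tet1-/- was thus detected in the set, which does not show that these genotypes are alike.

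The 7 ESC markers are set beside the 81 genes here. Summed over them, D6 libraries had 2134 and 2309 CPM in Tet2-/- replicates 1 and 2, and 793, 930 and 1749 in WT clones O4.1, O4.13 and O4.2. The Tet1-/- clones 2.1, 2.2 and 2.4 had 1356, 889 and 1694 CPM, the DKO clones 1283 and 1314, and TKO replicates 1 and 2 had 1805 and 1651. Among the clones sequenced at both days, the order of the sums within each genotype was also the order of the median day changes of the set (11 clones in 5 genotypes), although the Tet2-/- medians (1.22 and 1.24) and the DKO medians (0.337 and 0.344) were close. Over all 11 clones, WT clones O4.1 and O4.13 had the lowest sums and median changes and the Tet2-/- clones the highest. The rule used the values of these libraries. Between genotypes the order was not kept throughout, as TKO replicate 2 had a higher sum than both DKO clones and Tet1-/- clone 2.1 and a lower median change (-0.0905, against 0.216 in that Tet1-/- clone). It was also not kept for the level at D6 in Tet1-/-, where clone 2.2 had the lowest sum and a median level of the set of 2.36 in log2(CPM + 1), against 2.31 in clone 2.1 and 2.81 in clone 2.4. At D0, with the highest sums, the median level was 1.91 to 2.48. Markers and set come from the same libraries, and the part of the marker level in the result was not tested. In bulk RNA, more cells that express a gene and more RNA per cell cannot be told apart.

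**Figure D5:**
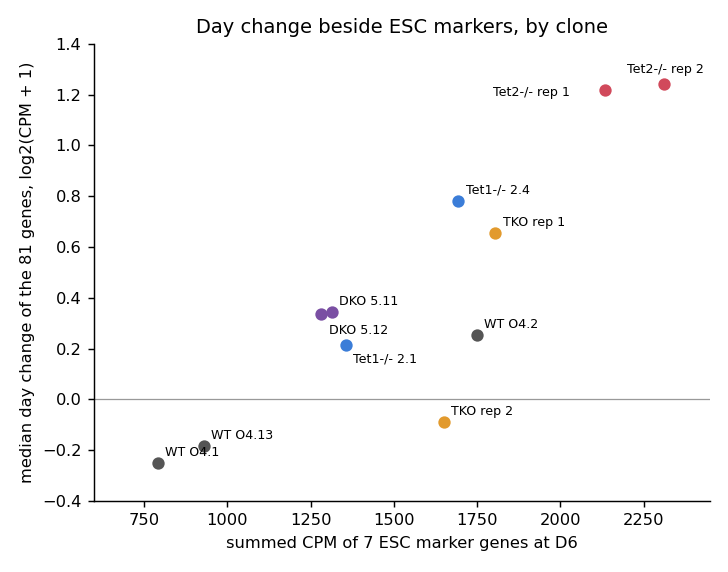
Median day change of the 81 genes (y axis, log2(CPM + 1)) beside the summed CPM of 7 ESC marker genes at D6 (x axis), 1 point per clone sequenced at both days. Both Tet2-/- clones lie at the top right and WT clones O4.1 and O4.13 at the bottom left. TKO replicate 2 has a marker sum of 1651, between those of the DKO clones and TKO replicate 1, with a median of -0.0905.

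Markers of primitive streak and mesoderm, endoderm and trophectoderm were lower in Tet2-/- than in WT at D6, whereas those of neuroectoderm were not. In summed CPM, the 19 genes for primitive streak and mesoderm had 109 and 157 in Tet2-/- and 520 to 1534 in WT, the 16 for endoderm 28.9 and 33.9 against 137 to 501, and the 12 for trophectoderm 197 and 225 against 829 to 1915. No member of the set belongs to these lists, and the part of the markers in the result was not tested. The 13 genes for neuroectoderm had 106 and 113 CPM in Tet2-/- at D6 and 94.7 to 139 in WT, with Neurog2 at 0 in both. These sums overlapped, and most of each was Nes, an intermediate filament of neural progenitors, at 67.7 and 77.2 CPM in Tet2-/- and 75.5 to 124 in WT. The other 12 genes summed to 35.69 and 37.95 CPM in Tet2-/- and 13.3 to 19.2 in WT, without overlap, and the next highest libraries of D6 were Tet1-/- clone 2.4 with 31.8 and the DKO clones with 23.5 and 24.8. Mean CPM at D6 in Tet2-/- and WT was 21.1 and 10.2 for Sox3 and 8.34 and 1.66 for Sox1, both SOX factors of neural progenitors, and Pax6 was the only 1 of the 13 in the set. The 15 neuron genes held no member, and summed to 544 and 554 CPM in Tet2-/- and 338 to 442 in WT at D6, against 536 to 563 and 541 to 557 at D0. The neuron sums of Tet2-/- at D6 thus lay above those of WT and within its own range at D0.

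The lists that touch the set through 1 gene were tested in the other knockouts. Their counts stand beside the shares of all genes tested given above (19.9%, 18.6% and 16.8% higher and 11.2%, 10.6% and 8.63% lower in Tet1-/-, DKO and TKO), and were not tested against them. Of the 10 tested neuroectoderm genes, 6 rose and 1 fell in Tet1-/-, 3 rose and 1 fell in DKO, and 3 rose and 1 fell in TKO, and Pax6 passed none of these tests (log2 fold change 1.34, 1.08 and 1.28; adjusted p = 0.0926, 0.306 and 0.285, edgeR). Of the 9 Nodal targets and components, with Lefty1, 4 rose and 2 fell in Tet1-/-, 5 rose and 2 fell in DKO, and 2 rose and 2 fell in TKO. Of the 12 MAPK feedback and immediate early genes, with Egr1, 2 rose and 2 fell in Tet1-/-, 4 rose and 3 fell in DKO, and 3 rose and 3 fell in TKO. The median day change of these 3 lists was 0.612, 0.405 and 0.0254 in Tet2-/- and 0.405, -0.229 and 0.0660 in WT, in log2(CPM + 1) and without a test.

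Features that the rule did not use were read from mm9 and GENCODE vM1, which place 74 of the 81 genes. The median gene span was 54.4 kb in the set and 22.7 kb over 14407 placed genes that were tested. Chromosome 13 held 10 of the 74 genes (13.5%, against 3.76% of the tested genes), namely Gprin1, Sncb, Ntrk2, Zfp738, Ell2, Gpr98, Rasgrf2, Sv2c, Enc1 and Rgs7bp, and chromosome 8 held 9 (12.2%, against 5.19%). Gprin1 (54838032 to 54851235) and Sncb (54860221 to 54867956) are neighbours. The tested genes of chromosome 13 had a median day change of 0.171 in Tet2-/- and 0.0693 in WT, and those of chromosome 8 of 0.0536 and -0.0680.

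In windows of 300 bases, from 250 before to 50 after the gene start, the set had a median of 15 CpG and a GC share of 60.5%, and all tested genes with a window (14404) had 18 CpG and 59.7%. An observed over expected CpG ratio of at least 0.6 was found in 52.7% of the windows of the set and 62.9% of all windows. Searched on both strands, the E-box CAGCTG was in 24.3% of the windows of the set (18 of 74) and 15.2% of all. The cAMP response element TGACGTCA was in 4.05% and 2.99%, and the EGR motif GCGGGGGCG in 1.35% and 5.44%. The Cdk5r2 and Astn1 sequences printed above each hold an E-box. These shares are descriptions without a test, and a match is not a binding site.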

How the data were processed

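The authors made poly(A) libraries with ERCC spike-in RNA, sequenced paired ends, mapped reads with STAR 2.5.1 to mm9 and deposited counts per RefSeq line, as whole numbers without normalization. HTSeq and featureCounts are both named as the counter and strand is not given in the sources used here, so overlapping and antisense genes are uncertain. Each table has 31928 lines for 22926 symbols, 4911 with more than 1 line. The first line was used (17 of the 81 genes have more), and library totals are sums over first lines. No column was left without a sample.

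One edgeR 4.0.16 quasi-likelihood fit (R 4.3.3, limma 3.58.1) covered 24 libraries in 10 groups, with TMM factors of 0.918 to 1.10, filterByExpr (minimum count 10, 15639 genes) and Benjamini-Hochberg adjustment over all genes tested. Calls were made at an adjusted p under 0.05 with an absolute log2 fold change above 1. The scripts were tested on simulated data. DESeq2 1.42.0, other scalings, no filter, summed lines, a clone block and single left-out libraries were alternatives. The floor of 3 counts was 0.0805 to 0.163 CPM and stands for counting error alone.

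Libraries were paired over days by the clone named in the labels, since replicate numbers do not follow clones, and a DKO label without the point was read as the DKO clone with the same digits. Deviations from group means correlated at 0.0748 to 0.196 within a clone.

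The 81 genes, the gene lists and the tests were chosen with earlier results of these data known, and the background of genes with a WT change of at most 0.3 was added after the calls were seen. Genes named are the 12 largest Tet2-/- changes, the 6 highest in Tet2-/- at D6, list members, the 3 calls with the smallest p per direction and test, those nearest the thresholds, the 5 lowest WT changes and the Tet genes. Others were picked as examples of a role after their values were seen.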

Additional observations from a re-analysis of the deposited data

How the results depend on the processing

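The rule gave 127 genes with a pseudocount of 0.5 (76 of the 81 among them), 52 with 2 (46 shared), 68 with TMM scaling (51 shared) and 69 with all lines of a symbol summed (55 shared). Leaving out 1 Tet2-/- or WT library gave 69 to 103. The replicate block by clone, with every clone past its threshold, kept 17. With library totals in place of TMM, 17 genes rose in Tet1-/-, 12 in DKO and 12 in TKO. Genes that fell in TKO numbered 1 instead of 2 with library totals, DESeq2, DESeq2 size factors and summed lines. The replicate block gave 9 rising and 0 falling genes in Tet1-/-. With it DKO had 7 and 1, TKO 8 and 3, and DKO minus Tet1-/- 0. It lost the calls of Astn1, Pou2f2 and Scn9a in Tet1-/-, Nalcn in DKO, and Nell2 and Crmp1 in TKO. With 1 library left out, 5 to 14 genes rose and 0 to 4 fell in Tet1-/-, 3 to 10 rose and 0 to 2 fell in DKO, and 5 to 14 rose and 1 to 11 fell in TKO. The log2 fold change of Rasgrf2 in TKO was -0.32 without TKO replicate 1 at D6 and 2.47 without replicate 2. DKO against Tet1-/- gave 0 genes under every alternative run. Of the 29 calls, 17 were lost without at least 1 library. A group of 2 that loses a library leaves 1, which is assumed to vary like the others. The cause of these shifts was not tested. Counts were low for many members, with 46 of the 81 genes under 10 CPM in Tet2-/- at D6 and 17 under 1 CPM in WT.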

Other observations

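Outside the 81 genes, lists of the primed and naive states had other medians in Tet2-/- than in WT, as values without a test. The 15 genes of formative and primed epiblast had a median day change of 2.47 in Tet2-/-, 1.77 in WT, 1.90 in Tet1-/-, 1.71 in DKO and 1.01 in TKO on the log2(CPM + 1) scale, but Fgf5 and Otx2 changed by 6.95 and 1.99 in Tet2-/- and by 7.02 and 2.00 in WT. The 17 genes of naive pluripotency had -1.15 in Tet2-/-, -1.29 in TKO, -2.56 in DKO, -2.40 in Tet1-/- and -2.70 in WT. Their summed CPM at D6 was 3108 and 3369 in Tet2-/-, 2804 and 3045 in TKO, 2179 and 2197 in DKO, 1304 to 2546 in Tet1-/- and 1131 to 2672 in WT. By the median, TKO thus lay near Tet2-/- in this list, whereas DKO, which also carries the Tet2 edit, lay near WT. By the sums, DKO lay within the WT range only through WT clone O4.2 (2672), as the other WT clones had 1131 and 1401. TKO replicate 2 (2804) lay closer to that WT clone than to either Tet2-/- clone. None of these genes belongs to the 81.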
